A study of Mus musculus with 46 samples.

Results

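The genes described here make the acidic, degradative interior of the lysosome: the subunits of the vacuolar proton pump (V-ATPase), the cathepsin proteases and the LAMP membrane proteins. They were chosen by symbol alone: names that begin with Atp6v or Atp6ap, Cts followed by a single letter, or Lamp followed by a digit. The rule found 49 genes of the 25124 in the largest table, made up of 27 V-ATPase genes, 18 cathepsins and 4 LAMPs. The rule uses symbols and no measured value, though it was chosen with earlier results of these data known. The V-ATPase genes comprised 13 of the V1 sector, 9 of the V0 sector, 3 accessory genes, the pseudogene Atp6v0c-ps2 and Atp6v1fnb.

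The V-ATPase works as a rotary motor. Its V1 sector, on the cytosolic side, hydrolyses ATP, and its V0 sector, in the membrane, carries protons into the lumen. The low pH it makes activates the cathepsins, which cut proteins taken up from outside or delivered by autophagy, while LAMP1 and LAMP2 are heavily glycosylated proteins that line the lysosomal membrane. In macrophages these genes are known for high expression and for their part in digesting microbes and preparing antigens, and many are targets of the MiT/TFE transcription factors, which bind E-box sequences in their promoters.

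The samples were polyA+ RNA of mouse bone-marrow-derived macrophages stimulated with lipid A, the membrane anchor of lipopolysaccharide (LPS), or with LPS itself, and the study asked how perturbing the SWI/SNF chromatin remodellers changes this response. Experiment 1 held ACBI1, BRM014 and BRDK98 treated cells at 4 hr of lipid A, and WT cells, labelled as controls, at 0, 1 and 4 hr. ACBI1 is a degrader of the SMARCA2 and SMARCA4 ATPases and of PBRM1, BRM014 is an inhibitor of the SMARCA2 and SMARCA4 ATPases, while of BRDK98 the code name alone is given. In experiment 2, LPS was given for 1 and 4 hr to Arid1a-/- cells and for 0, 1 and 4 hr to Arid1a f/f cells. Experiment 3 held Pbrm1-/- cells at 4 hr of lipid A and Pbrm1 f/f cells at 0 and 4 hr. Experiment 4 held the cells treated with each compound at 20 and 60 min of lipid A, and WT cells at 0, 20 and 60 min. Each of the 23 groups had 2 samples in the labels, but the second column of the 4 hr WT group in experiment 1 repeated the first at all 24537 genes, so this group counted as 1 library and every comparison with it rests on that library. Doses, times of exposure before the stimulus, the Cre line behind each deletion and whether the replicates came from separate cultures or animals are not given in the labels, nor is any vehicle given to the WT cells, so the p-values measure the spread between these libraries. The single WT library at 4 hr of experiment 1 has no spread of its own. The SE and p-values of its comparisons take the spread from the other groups of that experiment. Unstimulated cells carrying a deletion or given a compound were not analysed here. In bulk RNA such as this, fewer cells of a type and less RNA per cell cannot be told apart.

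Values are TPM as the authors deposited them. The 45 libraries held between 7015041 and 27527067 reads over genes, and 3 reads on a transcript of 2 kb came to 0.0654 to 0.298 TPM, which sets the floor of detection by counting error alone. Summed macrophage markers reached 12993 to 45399 TPM in every experiment, B cell markers at most 0.272 TPM and T and NK cell markers at most 1.36 TPM. Granulocyte markers summed to 308 to 511 TPM in experiment 3 and 272 to 510 TPM in experiment 4, against at most 52.5 TPM in experiments 1 and 2. In experiment 1, WT 1 hr replicate 1 stood apart, with a stromal marker sum of 150 TPM against 0.044 TPM in replicate 2. Arid1a itself had 7.17 and 13.2 TPM in Arid1a-/- cells against 18.3 and 17.3 TPM in Arid1a f/f cells at 1 hr, and 25.4 and 26.1 TPM against 35.2 and 41.9 TPM at 4 hr. Pbrm1 had 4.54 and 5.03 TPM in Pbrm1-/- cells against 15.6 and 14.7 TPM in Pbrm1 f/f cells. These values count the whole transcript, not a deleted exon.

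A member was tested where it reached 1 TPM in 2 libraries of its experiment. That left 33, 33, 34 and 34 members in experiments 1 to 4, of which 19 were V-ATPase genes, 12 to 13 cathepsins and 2 LAMPs in each, and 33 members were tested in all 4. Ctsg passed only in experiment 4 and Ctsw only in experiment 3. The 14 that passed nowhere were Atp6ap1l, Atp6v0a4, Atp6v0e2, Atp6v1b1, Atp6v1c2, Atp6v1e2, Atp6v1fnb, Atp6v1g3, Ctsj, Ctsm, Ctsq, Ctsr, Lamp3 and Lamp5. Atp6v0c-ps2, at chr17:24163865-24169395 on the minus strand, covers nearly all of Atp6v0c, at chr17:24163866-24169429, and took up nearly the same reads, so its values are not independent of those of Atp6v0c, and counts of members include both. A further 20 members overlap another annotated gene, and since reads were counted on both strands their values may include reads of the neighbour. Among the members named below these are Atp6v0a1, Atp6v0a2, Atp6v0b, Atp6v1b2, Atp6v1e1, Atp6v1g2, Ctsa, Ctsb, Ctsc, Ctsd, Ctsl, Ctss, Ctsz and Lamp1.

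Changes are differences of log2(TPM + 1) from limma, with the standard error (SE) and a p-value adjusted over all genes tested in the experiment. The whole distribution shifted with stimulation: the median gene changed by -0.84 at 4 hr of lipid A in experiment 1, -0.63 in experiment 2 and -0.75 in experiment 3, and by -0.33 at 60 min in experiment 4, on the log2 scale. A gene is therefore said to have risen or fallen only where it passed an adjusted p of 0.05 in the same direction both on TPM as deposited and on TPM divided by a median-ratio factor, which centres the median gene. Where it is given, the value on this second scale follows in the text as the median-scaled change. A change printed without it is on TPM as deposited and includes the shift of the whole distribution. Each count of members is set beside the share of all tested genes called in that direction. Calls were refitted under every other setting tried and with single libraries left out. Of the 192 calls among the members named here, 109 held throughout and 83 did not. Those of the 83 that are named below are given with a library that ended them. The WT 4 hr library of experiment 1, alone in its group, could not be left out. Calls against that group therefore held only without the other libraries.

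The promoters of these genes differ in a feature that the rule did not use. RefSeq windows of GRCm38.p6, from 250 bases before to 50 bases after the start, were at hand for 37 of the 49 members, 24 of them tested. The core E-box CACGTG, a palindrome that reads alike on both strands, lay in 9 of the 37, Atp6v0b, Atp6v0d1, Atp6v0e, Atp6v1a, Ctsa, Ctsd, Ctsf, Ctsl and Lamp1, all of them tested. It lay in 8.09% of 27025 genes with such windows, a share that is not restricted to tested genes. The longer TCACGTGA, which contains it, lay in 5 (Atp6v0d1, Atp6v0e, Atp6v1a, Ctsa and Ctsd), against 1.12% of genes, and the 10-base CLEAR palindrome, the consensus known for MiT/TFE sites, in 0, against 0.37% of genes. The 250 bases before the start are shown for 4 promoters that hold the motif, 2 of pump subunits, 1 of a protease and 1 of a membrane protein, and for Ctsc and Atp6v1d, the cathepsin and the pump gene with the largest rises at 4 hr of lipid A, which hold none. Each runs 5′ to 3′ on the gene's strand, with CACGTG in capitals.
Lamp1, chr8:13158911-13159160, plus strand: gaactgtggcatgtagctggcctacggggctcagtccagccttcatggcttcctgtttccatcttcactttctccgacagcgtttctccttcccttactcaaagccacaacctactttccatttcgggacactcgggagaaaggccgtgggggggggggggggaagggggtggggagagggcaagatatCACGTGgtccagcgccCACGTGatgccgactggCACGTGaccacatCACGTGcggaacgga
Ctsd, chr7:142387828-142388077, minus strand: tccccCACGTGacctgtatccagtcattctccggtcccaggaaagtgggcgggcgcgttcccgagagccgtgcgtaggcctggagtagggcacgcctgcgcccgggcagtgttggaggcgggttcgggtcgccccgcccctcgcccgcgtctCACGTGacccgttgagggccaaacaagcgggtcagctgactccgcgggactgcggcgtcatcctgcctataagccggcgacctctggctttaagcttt
Atp6v1a, chr16:44139260-44139509, minus strand: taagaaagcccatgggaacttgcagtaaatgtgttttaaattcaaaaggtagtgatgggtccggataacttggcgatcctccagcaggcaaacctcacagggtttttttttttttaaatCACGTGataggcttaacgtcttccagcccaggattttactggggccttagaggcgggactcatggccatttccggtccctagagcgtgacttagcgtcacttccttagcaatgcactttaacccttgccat
Atp6v0b, chr4:117887330-117887579, minus strand: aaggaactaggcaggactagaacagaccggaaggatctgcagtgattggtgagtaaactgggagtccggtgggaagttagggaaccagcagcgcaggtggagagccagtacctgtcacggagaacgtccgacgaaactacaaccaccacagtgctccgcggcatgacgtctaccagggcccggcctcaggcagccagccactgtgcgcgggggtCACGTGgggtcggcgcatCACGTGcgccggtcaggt
Ctsc, chr7:88277835-88278084, plus strand: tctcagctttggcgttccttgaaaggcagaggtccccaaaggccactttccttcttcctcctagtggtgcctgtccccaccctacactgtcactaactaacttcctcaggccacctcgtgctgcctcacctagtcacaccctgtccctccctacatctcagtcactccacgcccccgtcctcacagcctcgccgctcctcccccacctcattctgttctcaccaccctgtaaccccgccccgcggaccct
Atp6v1d, chr12:78861639-78861888, minus strand: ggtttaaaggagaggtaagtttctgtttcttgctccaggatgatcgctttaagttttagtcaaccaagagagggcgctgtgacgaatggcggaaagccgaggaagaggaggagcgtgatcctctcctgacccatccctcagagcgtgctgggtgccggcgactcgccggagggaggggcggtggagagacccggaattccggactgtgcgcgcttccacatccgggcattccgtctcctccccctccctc
Lamp1 held 4 copies within 61 bases of its start, Ctsd and Atp6v0b 2 each, and Atp6v1a 1 copy 131 bases upstream of the start used for its window. The transcript counted for Atp6v1a starts further downstream, at chr16:44139019. That counted for Ctsd starts at chr7:142387870, inside the stretch shown. A match describes these letters only.

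At rest the most abundant members per length were the aspartic protease gene Ctsd and the cysteine protease gene Ctsb. Ctsd had 9759 and 10024 TPM in WT cells of experiment 1, 10902 and 10668 TPM in Arid1a f/f cells, 9317 and 10512 TPM in Pbrm1 f/f cells and 6412 and 7494 TPM in WT cells of experiment 4. Ctsb ranged from 5731 to 8377 TPM over the same 8 libraries, so the lowest Ctsd and highest Ctsb values overlapped between experiments, though Ctsd stood above Ctsb in every library at rest. Ctss and Lamp1 followed, at 2671 to 4675 TPM and 1796 to 2674 TPM. Ctsk, the main collagenase of osteoclasts, had 4.5 to 14.8 TPM at rest, and Ctse 1.3 to 2.05 TPM in experiments 1, 3 and 4 against 31 and 32 TPM in experiment 2. The tables were normalised separately, so the levels of different experiments are set side by side without a test. Together the cathepsins made up 3.36% to 4.44% of all listed TPM at rest and the V-ATPase genes, Atp6v0c-ps2 left out, 0.468% to 0.622%.

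**Figure D1:**
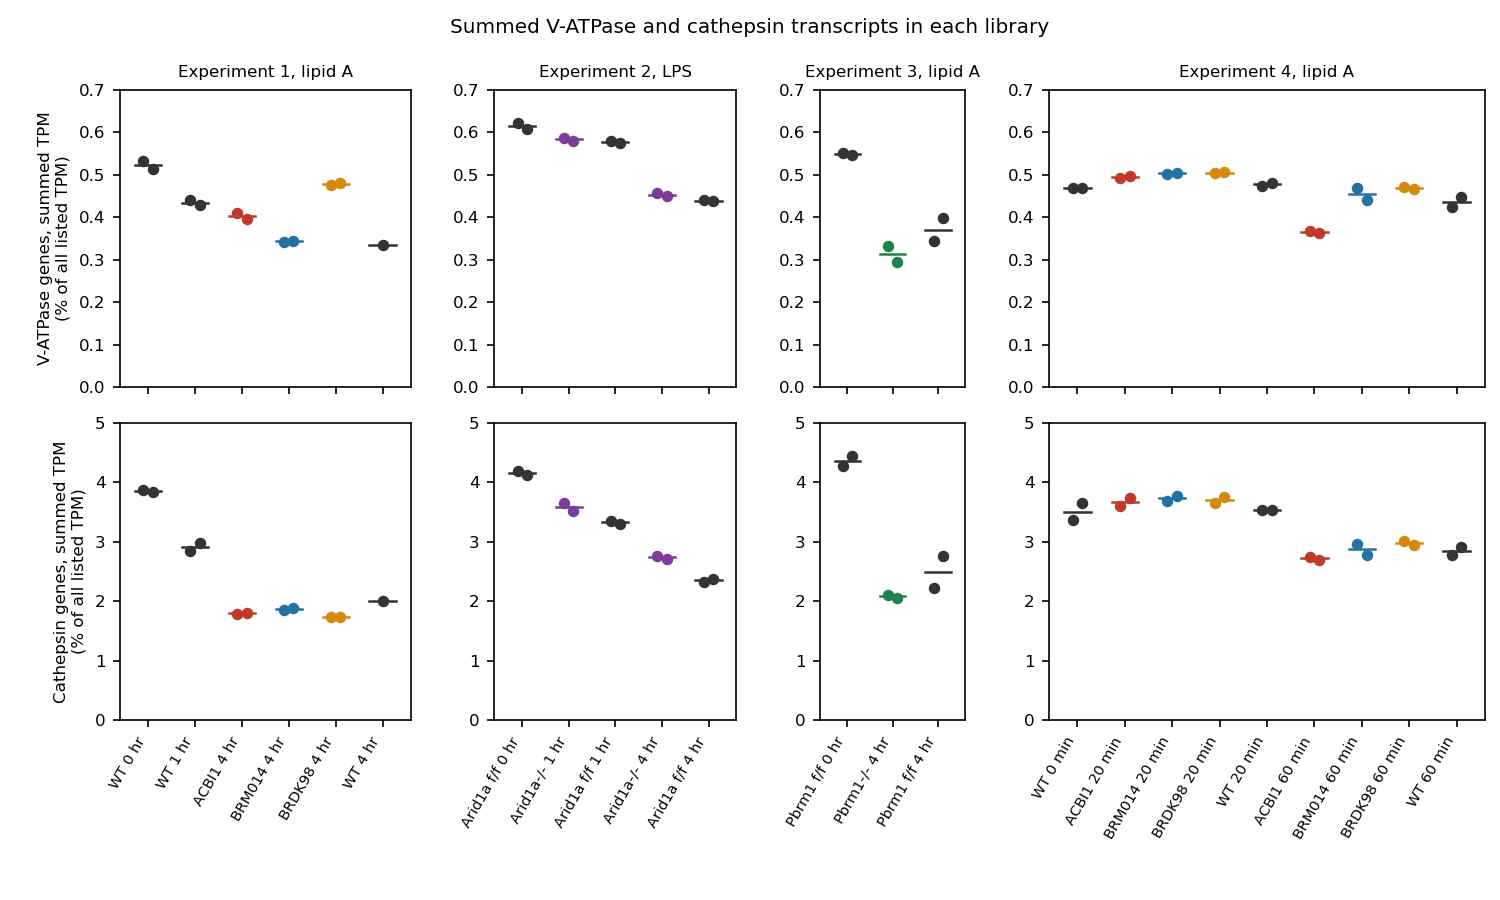
Summed TPM of the V-ATPase genes (upper row, Atp6v0c-ps2 left out) and of the cathepsins (lower row) as a percent of all listed TPM, for every library (points) with group means (lines), by experiment. Cathepsins stood at 3.36% to 4.44% in unstimulated cells and at 2.005% to 2.755% in the control libraries at 4 hr.

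In the control cells the summed cathepsin share was lower at 4 hr than at rest in every library. It was 2.005% in WT cells at 4 hr of experiment 1, against 3.88% and 3.84% at 0 hr. In Arid1a f/f cells it was 2.33% and 2.37% at 4 hr, against 4.19% and 4.115% at 0 hr, and in Pbrm1 f/f cells 2.22% and 2.755%, against 4.28% and 4.44%. The V-ATPase share moved the same way, to 0.336% in WT cells at 4 hr of experiment 1, against 0.533% and 0.515% at 0 hr. Ctsb moved with the median gene: its changes at 4 hr were -1.01 in experiment 1, -0.73 in experiment 2 and -0.78 in experiment 3, and -0.02, -0.02 and 0.07 on the median scale, so it was not called. Lamp1 was like it, at -0.84, -0.72 and -0.67 as deposited and 0.15, -0.001 and 0.18 median-scaled.

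Ctsc had the largest change of all members at 4 hr in each experiment but the second, where Atp6v0d2 fell further. It encodes cathepsin C, a dipeptidyl peptidase that activates the serine proteases of granulocytes and cytotoxic lymphocytes, and lies at chr7:88278085-88292159 on the plus strand. Its level in experiment 1 was 84.0 and 81.8 TPM in WT cells at 0 hr, 595 and 598 TPM at 1 hr and 1006 TPM at 4 hr. In Arid1a f/f cells it was 37.6 and 39.3 TPM at 0 hr, 50.2 and 47.3 TPM at 1 hr and 162 and 142 TPM at 4 hr of LPS. Pbrm1 f/f cells had 554 and 502 TPM at 4 hr of lipid A, against 79.0 and 76.7 TPM at 0 hr. In experiment 4 WT cells had 93.6 and 78.6 TPM at 0 min, 77.8 and 75.3 TPM at 20 min and 388 and 362 TPM at 60 min. No stimulated library from 60 min on overlapped its resting group, while both 20 min libraries lay below the resting ones. The rise was 2.83 at 1 hr and 3.58 at 4 hr in experiment 1 (SE 0.07 and 0.09, adjusted p = 5.57e-10 and 6.37e-10), 1.95 at 4 hr in experiment 2 (SE 0.09, adjusted p = 9.85e-09), 2.745 at 4 hr in experiment 3 (SE 0.14, adjusted p = 1.01e-06) and 2.11 at 60 min in experiment 4 (SE 0.11, adjusted p = 3.23e-09). At 1 hr of LPS the rise was 0.33 (SE 0.09, adjusted p = 0.00926), and this call ended without Arid1a f/f 0 hr replicate 1 or 1 hr replicate 1. Experiments 1, 3 and 4 used lipid A and experiment 2 LPS, so stimulus and experiment cannot be told apart.

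**Figure D2:**
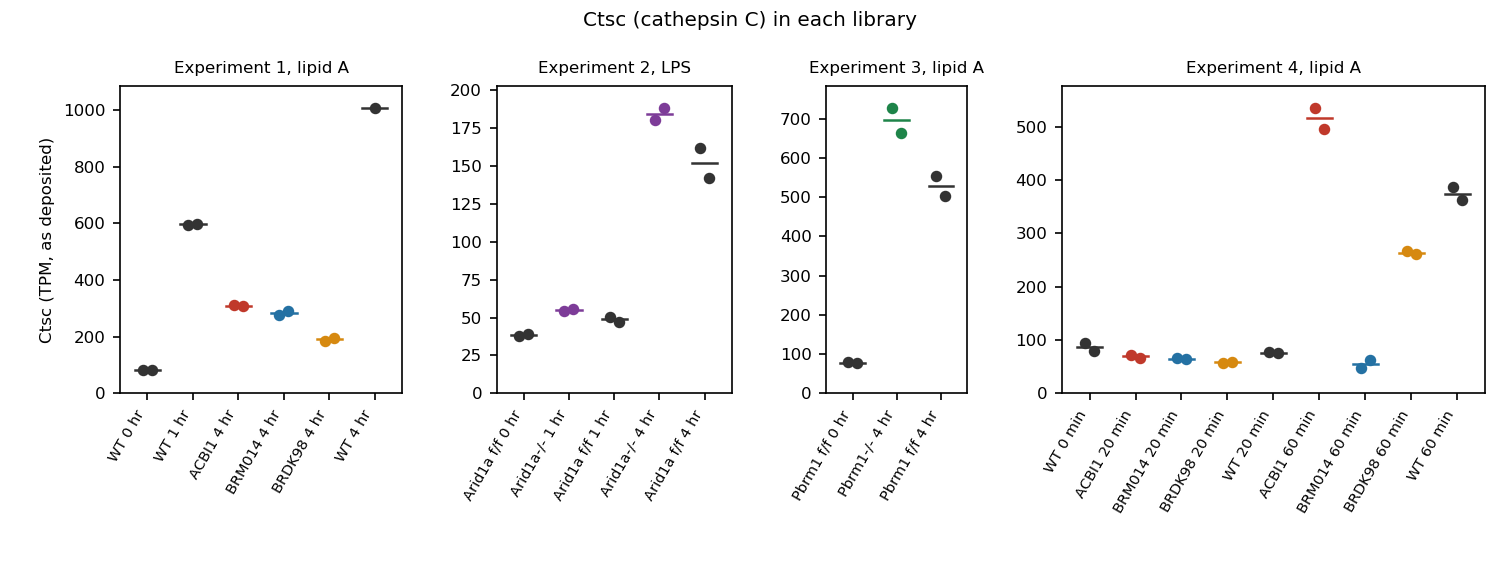
Ctsc level (TPM as deposited) in every library (points) with group means (lines), by experiment, each panel with its own axis from 0. Stimulated control libraries reached 1006 TPM at 4 hr in experiment 1, and at 60 min BRM014 cells stayed at 47.4 and 62.7 TPM.

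The V-ATPase genes split over the response, and the split was not that of the sectors. At 1 hr of lipid A in experiment 1, 2 of the 33 tested members rose (9.9% of all tested genes were called higher) and 3 fell (19.3% called lower); 1 riser and all 3 that fell were V-ATPase genes. At 4 hr, 6 rose (20.1%) and 10 fell (37.2%; 57.3% of all genes were called in either direction), among them 2 and 6 V-ATPase genes. In experiment 2, 4 rose (13.6%) and 6 fell (20.3%) at 1 hr of LPS, and 6 rose (17.9%) and 6 fell (35.3%; 53.2% either way) at 4 hr. In experiment 3, 3 rose (16.0%) and 3 fell (30.3%; 46.3% either way) at 4 hr, and in experiment 4, 3 rose (7.47%) and 3 fell (17.8%) at 60 min. The balance differed in the authors' deposited table, where 9 of the tested members were higher and 1 was lower at 1 hr in experiment 1, while 11 were higher and 8 lower at its 4 hr. For LPS the authors' deposited table held 10 higher and 8 lower members at 1 hr, then 15 higher with 6 lower at 4 hr. It held 9 higher and 1 lower in experiment 3 and 13 higher and 0 lower at 60 min, so some members not called here were higher there. For no comparison were all genes past the authors' threshold counted, so the authors' member counts stand without that share. By the joint rule used here, fewer of the members than of all genes were called lower in these comparisons, and about as many or fewer were called higher, a difference that was not tested. The members' median change at 4 hr was -0.91, -0.61 and -0.67 in experiments 1 to 3, close to that of all genes, and -0.02, 0.10 and 0.13 median-scaled. At 20 min 0 members were called (0.736% of all genes higher, 0.32% lower, 1.06% either way). By limma 2 of 34 members had an unadjusted p under 0.05, where 17.9% of all genes did. The authors' deposited table had 1 member higher. Without either BRM014 60 min library 1 member was called at 20 min, and at 60 min 3 were called without WT 0 min replicate 2 or WT 60 min replicate 2.

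In the V1 sector, Atp6v1e1, a subunit of the peripheral stalk, was called higher in all 6 comparisons with the resting cells from 60 min on. Its level in experiment 1 was 197 and 187 TPM at 0 hr, 242 and 226 TPM at 1 hr and 258 TPM at 4 hr. WT cells of experiment 4 had 131 and 129 TPM at 0 min, 138 and 133 TPM at 20 min and 201 and 218 TPM at 60 min. Its changes were 0.43 at 4 hr in experiment 1 (SE 0.09, adjusted p = 0.00152), 0.68 at 4 hr in experiment 2 (SE 0.08, adjusted p = 2.49e-05) and 0.685 at 60 min in experiment 4 (SE 0.08, adjusted p = 9.54e-06). The smaller changes of 0.28 and 0.34 at 1 hr in experiments 1 and 2 and the 0.58 of experiment 3 were each lost without a library, WT 1 hr replicate 1, Arid1a f/f 1 hr replicate 1 and Pbrm1 f/f 0 hr replicate 2.

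Atp6v1d, a subunit of the central rotor, had the largest rise of the V1 genes at 4 hr of lipid A in experiments 1 and 3, where Atp6v1e1 rose too. It had 157 and 119 TPM in WT cells at 0 hr, 131 and 121 TPM at 1 hr and 603 TPM at 4 hr of experiment 1. Pbrm1 f/f cells had 349 and 408 TPM at 4 hr, against 195 and 155 TPM at 0 hr. In Arid1a f/f cells given LPS it had 105 and 114 TPM at 0 hr, 103 and 100 TPM at 1 hr and 87.8 and 88.3 TPM at 4 hr. The 4 hr libraries stood above all resting ones in experiments 1 and 3 and below them in experiment 2. The rises were 2.13 in experiment 1 (SE 0.15, adjusted p = 3.89e-07) and 1.11 in experiment 3 (SE 0.18, adjusted p = 0.000439). The change in experiment 2 was not called, and the difference between experiments was not tested.

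Other V1 genes fell. Atp6v1g1, another stalk subunit, had 53.1 and 63.1 TPM at 0 hr, 29.1 and 22.4 TPM at 1 hr and 18.6 TPM at 4 hr of experiment 1, falls of 1.15 and 1.59 on the log2 scale (SE 0.14 and 0.17, adjusted p = 5.87e-05 and 7.39e-06), while it passed in no other stimulus comparison. The catalytic subunit gene Atp6v1a fell by 1.14 at 4 hr of LPS (SE 0.10, adjusted p = 1.8e-06), with 178 and 170 TPM at 4 hr, against 386 and 384 TPM at 0 hr. Its fall of 1.23 at 4 hr in experiment 1 (106 TPM against 258 and 241 TPM at 0 hr) was -0.24 median-scaled and ended without any of 7 libraries, WT 0 hr replicate 1 and each compound library. Atp6v1c1 fell by 1.04 at 4 hr of LPS (SE 0.07, adjusted p = 2.29e-07). Atp6v1h rose by 0.29 at 4 hr of LPS (SE 0.08, adjusted p = 0.00562), and its rises of 0.34 at 1 hr of LPS and 0.19 at 60 min of lipid A ended without Arid1a f/f 1 hr replicate 1, and without WT 0 min replicate 2 or WT 60 min replicate 2. The nucleotide-binding subunit gene Atp6v1b2 had -0.50 at 1 hr and 0.20 at 4 hr of LPS and -0.61 at 60 min, and Atp6v1g2, at under 10 TPM, had -1.02 at 1 hr in experiment 1, -1.30 in experiment 3 and -0.77 at 60 min. Each of these 6 calls ended without at least 1 resting or stimulated library of its own comparison: for Atp6v1b2 Arid1a f/f 0 hr replicate 1 or 1 hr replicate 2 at 1 hr, any of the 6 Arid1a f/f libraries at 4 hr, and WT 0 min replicate 1 or 2 or WT 60 min replicate 1 at 60 min; for Atp6v1g2 WT 0 hr replicate 2 or WT 1 hr replicate 1 in experiment 1, Pbrm1 f/f 0 hr replicate 1 or 2 or 4 hr replicate 1 in experiment 3, and WT 0 min replicate 2 or WT 60 min replicate 2 in experiment 4.

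In the V0 sector the falls were larger. Atp6v0c, the proteolipid of the rotating ring, had 72.6 and 106 TPM at 0 hr, 77.6 and 88.4 TPM at 1 hr and 14.7 TPM at 4 hr of experiment 1, a fall of 2.5 (SE 0.21, adjusted p = 2.26e-06). Atp6v0a1, which forms the proton path, had 120 and 123 TPM at 0 hr and 29.0 TPM at 4 hr, a fall of 2.03 (SE 0.10, adjusted p = 3.22e-08), and Atp6v0d1 fell by 1.74 (SE 0.10, adjusted p = 8.95e-08). In experiment 3 Atp6v0a1 had a change of -1.27, whose call ended without Pbrm1 f/f 0 hr replicate 1 or 2. Atp6v0d2, the form of the d subunit known from osteoclasts and macrophages, fell by 2.23 at 4 hr of LPS (SE 0.13, adjusted p = 1e-07) and by 1.54 at 4 hr in experiment 3 (SE 0.17, adjusted p = 4.34e-05). It had 14.1 and 10.9 TPM in Arid1a f/f cells at 4 hr, against 55.5 and 68.7 TPM at 0 hr, and 65.6 and 83.8 TPM in Pbrm1 f/f cells at 4 hr, against 217 and 219 TPM at 0 hr. At 1 hr of LPS its change of -0.78 was lost without Arid1a f/f 0 hr replicate 2. Atp6v0e rose by 0.37 at 1 hr of LPS (SE 0.07, adjusted p = 0.00244). Atp6v0a2, the low-abundance form of the a subunit, had calls of -0.71 at 1 hr in experiment 1, -0.46 and 0.29 at 1 and 4 hr of LPS and -0.68 at 60 min. Each ended without a library: WT 0 hr replicate 1 or either WT 1 hr replicate in experiment 1, Arid1a f/f 0 hr replicate 1 or either 1 hr replicate at 1 hr of LPS, 0 hr replicate 2 or 4 hr replicate 1 at 4 hr, and WT 0 min replicate 1 or WT 60 min replicate 2 in experiment 4. The accessory gene Atp6ap1 had changes of -1.05, -0.62 and -0.82 at 4 hr, and -0.06, 0.10 and 0.03 median-scaled, with no call.

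**Figure D3:**
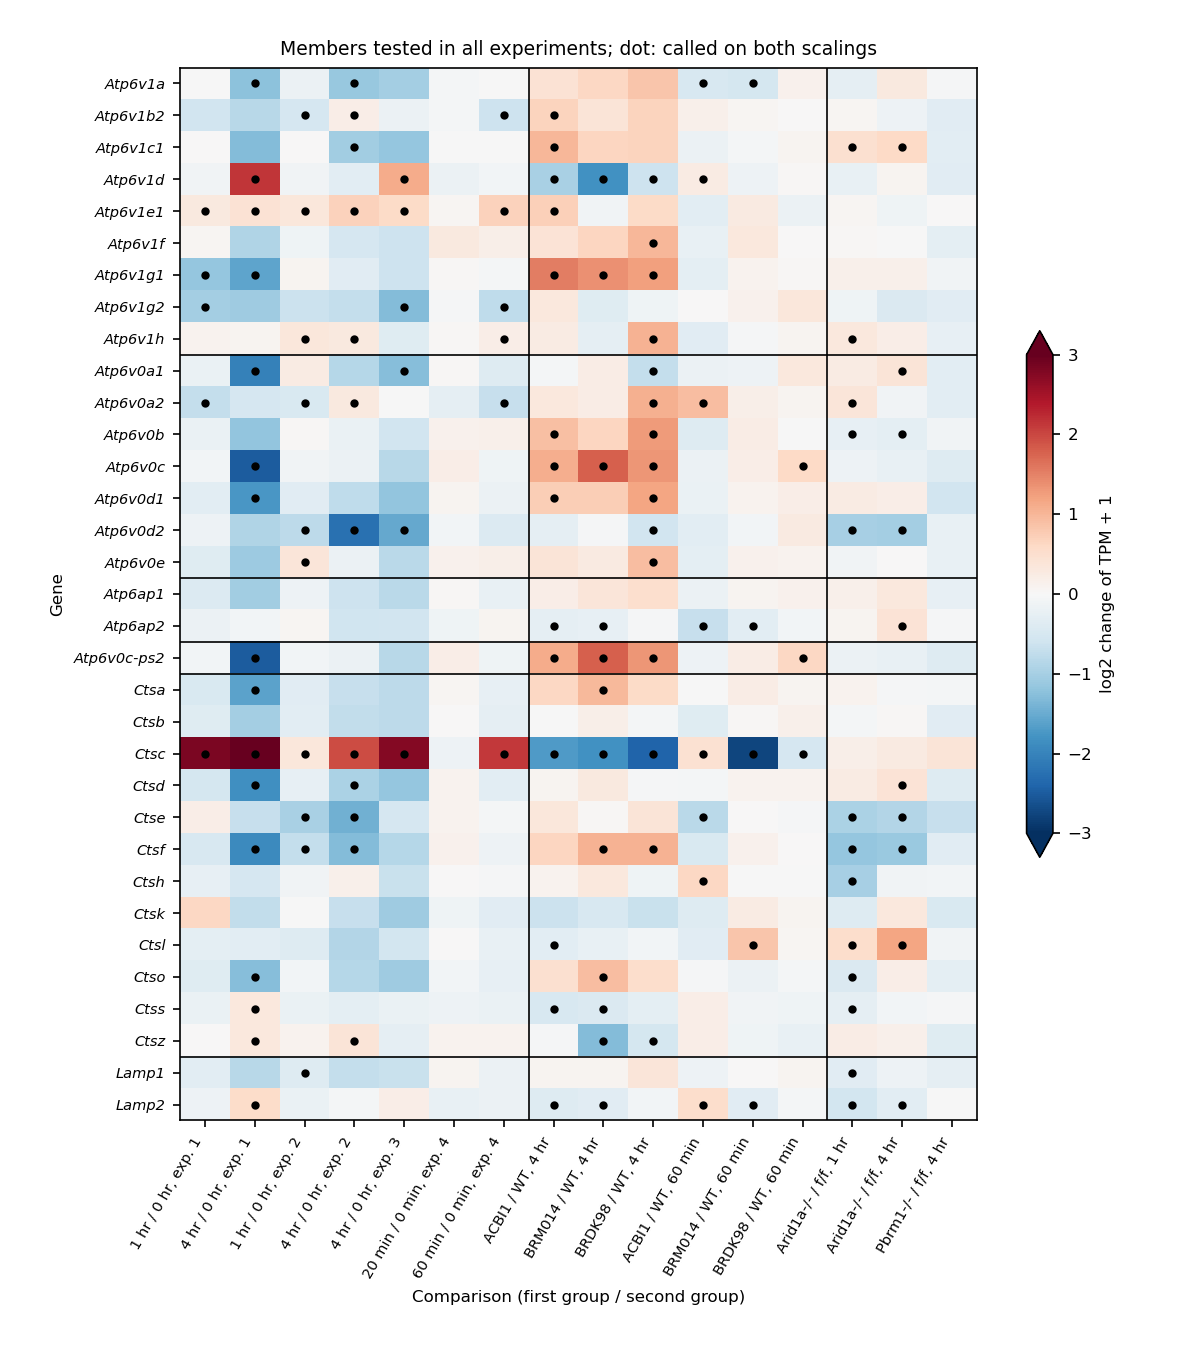
Log2 change of TPM + 1 (colour, cut at 3) for the 33 members tested in all experiments (rows: V1, V0, accessory, Atp6v0c-ps2, cathepsins, LAMPs) in 16 comparisons (columns, first group over second). A dot marks a call on both scalings. Ctsc is the darkest row, higher at 4 hr of stimulation by 1.95 to 3.58 and lower with all 3 compounds at 4 hr, at -1.70 to -2.39.

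Among the cathepsins, Ctsd, Ctsf and Ctsa fell with lipid A at 4 hr in experiment 1. Ctsd had 9759 and 10024 TPM at 0 hr, 6592 and 7161 TPM at 1 hr and 2766 TPM at 4 hr, a fall of 1.84 (SE 0.09, adjusted p = 3.78e-08) that was -0.84 median-scaled. The fall was 1.90 for the cysteine protease gene Ctsf (SE 0.15, adjusted p = 8.75e-07) and 1.60 for Ctsa (SE 0.10, adjusted p = 1.33e-07), whose product is a carboxypeptidase that also protects other lysosomal enzymes. Ctso had -1.28, a call that ended without WT 0 hr replicate 1. With LPS, Ctsf fell by 0.72 at 1 hr and 1.31 at 4 hr (SE 0.12 each, adjusted p = 0.000679 and 2.22e-06), and Ctse, an aspartic protease, by 0.97 and 1.45 (SE 0.13 each, adjusted p = 0.000178 and 1.89e-06). Ctse had 31 and 32 TPM at 0 hr, 16.5 and 14.6 TPM at 1 hr and 11.8 and 10.004 TPM at 4 hr of LPS, so each later time lay below the earlier one. Ctsd had -0.94 at 4 hr of LPS, whose call ended without either Arid1a f/f 0 hr or 1 hr replicate or 4 hr replicate 1.

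Against this fall, Ctsz, a carboxypeptidase, rose by 0.31 in experiment 1 (SE 0.10, adjusted p = 0.0129) and by 0.38 in experiment 2 at 4 hr (SE 0.09, adjusted p = 0.00272), and its median-scaled changes were 1.31 and 1.10. Lamp2 rose by 0.55 at 4 hr in experiment 1 (SE 0.10, adjusted p = 0.000347), with 976 TPM at 4 hr, against 682 and 649 TPM at 0 hr. Ctss, the protease that trims the invariant chain of MHC class II, had 3597 TPM at 4 hr against 3173 and 2671 TPM at 0 hr, a change of 0.30 whose call ended without WT 0 hr replicate 2 or either BRDK98 replicate. Lamp1 had -0.38 at 1 hr of LPS, lost without any of the 4 libraries compared. Ctsl had no call: its changes at 4 hr were -0.33, -0.87 and -0.56, against 0.67, -0.16 and 0.29 median-scaled. Ctsk, at 8.96 and 4.5 TPM at 0 hr, 28.5 and 3.42 TPM at 1 hr and 3.42 TPM at 4 hr, had no call either. Its high 1 hr library is WT 1 hr replicate 1, the one with the stromal marker RNA. A list of 8 osteoclast markers summed to 74.3 TPM there, of which Acp5 alone had 54.1 TPM, against 31.6 TPM and 16.1 TPM in replicate 2. Calcr was at 0 in both. Without that library 2 members were called at 1 hr in place of 5, Atp6v1g1 at -1.33 and Ctsc at 2.84.

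The members with the E-box in the promoter are few, and their counts are given as a description. Of the 9 tested members with CACGTG, 0 rose and 5 fell at 4 hr of lipid A in experiment 1, against 6 that rose and 3 that fell of 14 without it, where 20.1% of all genes rose and 37.2% fell. Their median changes were -1.23 with and -0.42 without the motif, and -0.24 and 0.49 median-scaled. At 4 hr of LPS the counts were 0 and 3 of 9 with the motif, against 3 and 0 of 14 without it (17.9% and 35.3% of all genes), and the median-scaled medians -0.04 and 0.30. In experiment 3 they were 0 and 0 of 9, against 3 and 2 of 14 (16.0% and 30.3% of all genes), with median-scaled medians of 0.04 and 0.24. Beside these shares of all genes, 0 risers of 9 is a small count to read, and the 2 promoter sets were not tested against each other.

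All 3 compounds were compared with the single WT library at 4 hr, which those comparisons share, so their values are set side by side. The lipid A changes of these WT cells at 4 hr rest on the same library. An unusual value in it alone would give opposite signs with lipid A and with the compounds. That library could not be left out, so this was not tested. The median gene was higher by 0.25 in ACBI1, 0.43 in BRM014 and 0.46 in BRDK98 cells on the deposited scale. In ACBI1 cells 8 members rose (20.0% of all genes) and 6 fell (13.5%). In BRM014 cells 6 rose (26.4%) and 6 fell (16.4%), and in BRDK98 cells 10 rose (22.0%) and 5 fell (12.4%). The authors' deposited table had 9 of the tested members higher and 13 lower with ACBI1, 5 and 18 with BRM014 and 10 and 14 with BRDK98, a balance toward lower values that the joint rule did not show. The balance of all genes in the authors' table was not counted, so theirs cannot be read as particular to the members. By the joint rule, V-ATPase genes supplied 8 of 8, 3 of 6 and 9 of 10 of the risers, while cathepsins supplied 3 of 6, 3 of 6 and 2 of 5 of those that fell. The members' median change was 0.31, 0.23 and 0.50, and -0.02, -0.30 and -0.08 median-scaled. The summed V-ATPase share was 0.410% and 0.397% in ACBI1, 0.343% and 0.344% in BRM014 and 0.476% and 0.482% in BRDK98 cells, against 0.336% in WT cells, whereas the summed cathepsin share was 1.73% to 1.89% in all compound libraries, against 2.005%.

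Ctsc was lower in every compound library at 4 hr. It had 311 and 307 TPM in ACBI1, 277 and 292 TPM in BRM014 and 185 and 196 TPM in BRDK98 cells, against 1006 TPM in WT cells. All 6 compound libraries lay above the resting level of 84.0 and 81.8 TPM. The changes were -1.70, -1.82 and -2.39 (SE 0.09 each, adjusted p = 1.54e-06, 1.49e-07 and 4.52e-08). BRDK98 cells lay below ACBI1 cells by 0.69 and below BRM014 cells by 0.57 on the log2 scale (adjusted p = 2.52e-05 and 8.84e-05), and the difference of BRM014 from ACBI1 was not called. Markers of granulocytes, which use cathepsin C, moved as well. The 8 summed to 30.9 and 24.0 TPM in ACBI1, 52.5 and 43.2 TPM in BRM014 and 6.47 and 6.27 TPM in BRDK98 cells, against 21.6 TPM in WT cells. Of the 4 tested, 3 were called lower with BRDK98, S100a8 at -1.49, S100a9 at -1.75 and Ngp at -0.77. With BRM014 Ngp was called higher, at 1.38, and 0 were called with ACBI1. Ly6g and Elane were at 0 in all 7 of these libraries. The part of these cells in the Ctsc changes was not tested.

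Atp6v1d, the pump gene that rose most with lipid A, also fell with each compound. Its rise in the WT cells and these falls share the single WT library. Atp6v1d had 326 and 293 TPM in ACBI1 and 166 and 177 TPM in BRM014 cells. In BRDK98 cells it had 403 and 385 TPM, against 603 TPM in WT cells. The changes were -0.96, -1.81 and -0.61 (SE 0.15 each, adjusted p = 0.000547, 4.82e-06 and 0.00502). BRM014 cells were below ACBI1 cells by 0.85 on the log2 scale and BRDK98 cells above BRM014 cells by 1.195 (adjusted p = 0.000391 and 2.03e-05). Atp6v1g1, which had fallen with lipid A, was the V-ATPase gene that rose with every compound and kept each call. Its fall and these rises also share the single WT library, which could not be left out. Atp6v1g1 had 60.7 and 51.2 TPM in ACBI1 and 49.5 and 49.5 TPM in BRM014 cells. In BRDK98 cells it had 43.6 and 47.1 TPM, against 18.6 TPM in WT cells. These are changes of 1.53, 1.36 and 1.24 (SE 0.17 each, adjusted p = 6.59e-05, 5.58e-05 and 0.000126).

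**Figure D4:**
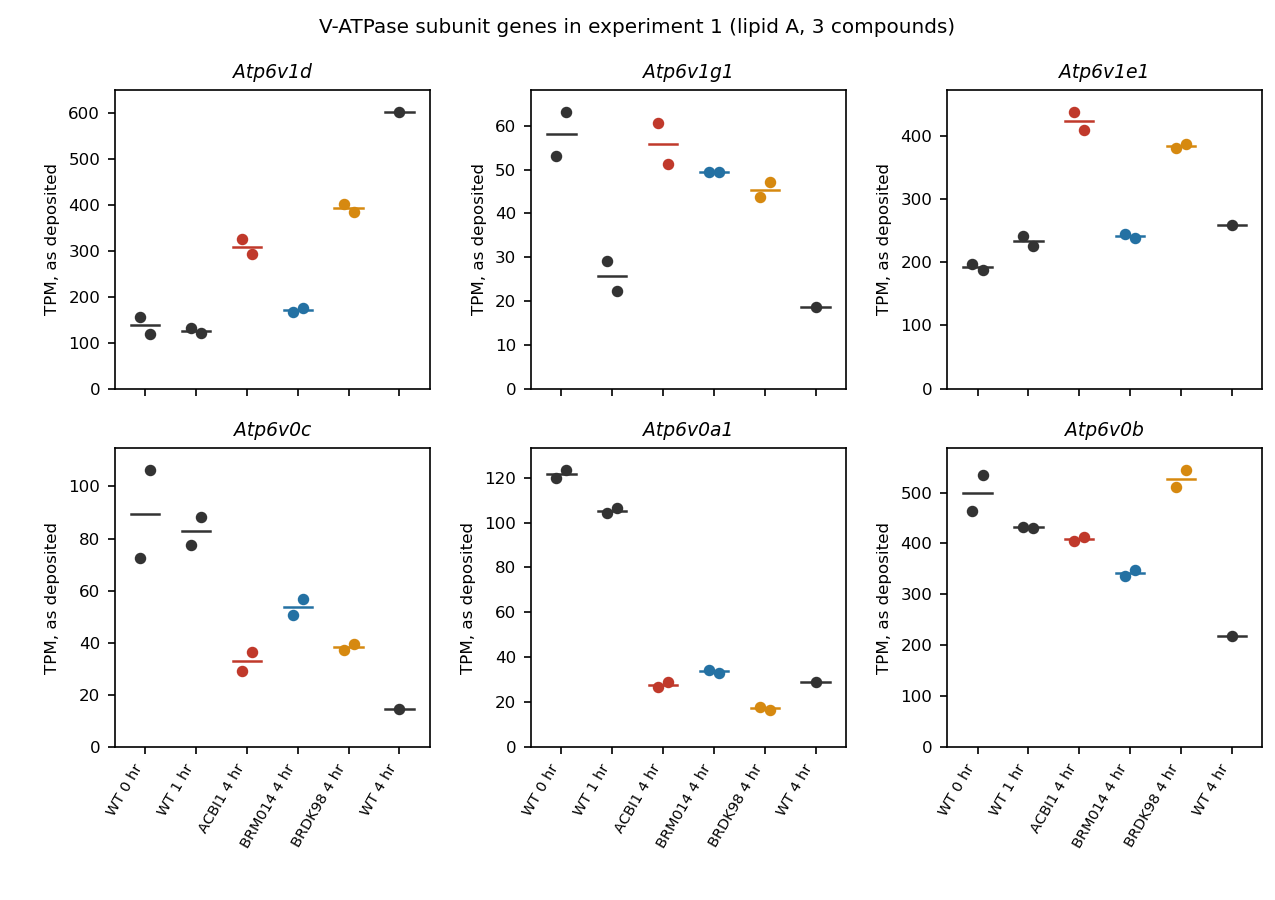
Levels (TPM as deposited) of 3 V1 genes (upper row) and 3 V0 genes (lower row) in every library of experiment 1 (points) with group means (lines), each panel with its own axis from 0. Atp6v1d stands at 603 TPM in the WT library at 4 hr and at 166 to 403 TPM in the compound libraries, and Atp6v1g1 at 18.6 TPM and 43.6 to 60.7 TPM.

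Other V1 genes set the compounds apart. Atp6v1e1 rose with ACBI1 by 0.71 (SE 0.09, adjusted p = 0.000195), with 438 and 409 TPM, against 258 TPM in WT cells. It stood at 244 and 238 TPM in BRM014 and 381 and 387 TPM in BRDK98 cells. BRM014 cells were lower than ACBI1 cells by 0.81 on the log2 scale (adjusted p = 2.06e-05) and BRDK98 cells higher than BRM014 cells by 0.67 (adjusted p = 4.36e-05). Atp6v1h, a regulatory subunit, had 138 and 134 TPM in BRDK98 cells, against 65.0 TPM in WT cells, a rise of 1.05 (SE 0.14, adjusted p = 0.000117). BRDK98 cells also exceeded ACBI1 cells, at 84.5 and 70.2 TPM, by 0.81 and BRM014 cells, at 53.9 and 53.1 TPM, by 1.33 (adjusted p = 0.000197 and 5.28e-06). Atp6v1c1 rose with ACBI1 by 1.00 (SE 0.15, adjusted p = 0.000377) and Atp6v1f with BRDK98 by 1.00 (SE 0.12, adjusted p = 5.01e-05, median-scaled 0.36). The Atp6v1b2 change of 0.66 with ACBI1 ended without any of 8 libraries, each compound library and both WT 1 hr replicates.

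In the V0 sector 5 of the 7 tested genes were called higher with BRDK98 and 2 lower, where 22.0% and 12.4% of all genes were. The calls of Atp6v0c and Atp6v0d2 among them ended without either BRDK98 replicate. Atp6v0b rose by 1.27 (SE 0.10, adjusted p = 6.8e-06), with 510 and 543 TPM in BRDK98 cells, against 218 TPM in WT cells, and by 0.90 with ACBI1 (405 and 412 TPM, SE 0.10, adjusted p = 8.87e-05). Atp6v0d1 rose by 1.18 (SE 0.10, adjusted p = 8.17e-06), Atp6v0a2 by 1.07 (SE 0.12, adjusted p = 4.43e-05) and Atp6v0e by 0.92 (SE 0.10, adjusted p = 3.37e-05). Atp6v0a1 went the other way with BRDK98, at 17.9 and 16.6 TPM, against 29.0 TPM in WT cells, a fall of 0.71 (SE 0.10, adjusted p = 0.000153). It was lower in BRDK98 than in ACBI1 cells by 0.65 and than in BRM014 cells by 0.93 on the log2 scale. Atp6v0c rose with BRM014 by 1.80 (SE 0.21, adjusted p = 5.62e-05), with 50.8 and 56.9 TPM, against 14.7 TPM in WT cells. Its changes of 1.10 with ACBI1 and 1.32 with BRDK98 ended without ACBI1 replicate 2 and without either BRDK98 replicate, as did those of Atp6v0c-ps2. The Atp6v0d1 change of 0.74 with ACBI1 ended without ACBI1 replicate 2, and the Atp6v0d2 change of -0.58 with BRDK98 without either BRDK98 replicate. The accessory gene Atp6ap2 had -0.28 with ACBI1 and -0.25 with BRM014, and both calls ended without any of the 6 compound libraries.

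Among the other cathepsins, Ctsz set BRM014 apart at 4 hr. It had 480 and 483 TPM in BRM014 cells, 1152 and 1172 TPM in ACBI1 cells and 811 and 838 TPM in BRDK98 cells, against 1187 TPM in WT cells. It fell by 1.3 with BRM014 (SE 0.10, adjusted p = 2.67e-06) and by 0.53 with BRDK98 (SE 0.10, adjusted p = 0.00103). BRM014 cells were below ACBI1 cells by 1.27 and BRDK98 cells above BRM014 cells by 0.77 (adjusted p = 1.26e-06 and 2.27e-05). The interval of the change with ACBI1, which was not called, is -0.25 to 0.19 on the log2 scale. Ctss fell by 0.47 with ACBI1 and 0.44 with BRM014 (SE 0.12 each, adjusted p = 0.00794 and 0.00762). Lamp2 fell by 0.39 with ACBI1 (SE 0.10, adjusted p = 0.00753), and its -0.35 with BRM014 was lost without BRM014 replicate 2. Ctsf had 1.04 with BRM014 and 1.03 with BRDK98, each lost without replicate 2 of that compound. Ctsa and Ctso had 0.96 and 0.94 with BRM014, lost without BRM014 replicate 1 for Ctsa and without replicate 2 for Ctso, and the Ctsl change of -0.31 with ACBI1 was lost without ACBI1 replicate 2. Ctsb and Ctsd, the most abundant cathepsins, had no call with any compound against WT cells. The 8 osteoclast markers summed to 71.5 and 83.4 TPM in the ACBI1 libraries, against 34.1 TPM in WT cells, and Acp5 made up most of the sum, at 63.5 and 73.6 TPM against 21.2 TPM. Acp5 was not called, at 1.65 (adjusted p = 0.0818). Of the 5 tested, 0 were called higher and Car2 was called lower, at -0.78, while Nfatc1 and Itgb3 had -0.34 and -0.09 and were not called, and Calcr was at 0 in every library of the experiment. Ctsk stood at 2.12 and 1.57 TPM with ACBI1, against 3.42 TPM in WT cells.

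Over all members, compound against compound at 4 hr, BRM014 cells had 0 higher (16.0% of all genes) and 8 lower (14.1%; 30.1% either way) than ACBI1 cells, 7 of them V-ATPase genes. BRDK98 cells had 4 higher (21.2%) and 4 lower (15.4%) than ACBI1 cells, and 9 higher (23.3%) and 10 lower (22.1%) than BRM014 cells, where 8 of the 9 and 4 of the 10 were V-ATPase genes and 6 of the 10 cathepsins. Without any single ACBI1 or BRM014 library the first count was 4 to 5. The second was 5 without ACBI1 replicate 2 or BRDK98 replicate 2, and the third 12 without BRM014 replicate 2 and 11 without BRDK98 replicate 2. For the comparisons with WT cells, ACBI1 had 8 calls without ACBI1 replicate 2, and BRDK98 had 9 and 8 without its replicates 1 and 2. Doses are not given, so these are differences between treatments as applied.

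At 20 min of lipid A 0 members were called with any compound. The shares of all genes called higher and lower were 0.0779% and 0.0606% with ACBI1, 0.0606% and 0.329% with BRM014 and 0.485% and 0.84% with BRDK98. By limma 5, 6 and 6 of 34 members had an unadjusted p under 0.05, where 5.84%, 9.19% and 11.6% of all genes did. The authors' deposited table held 4, 6 and 4 members past its threshold. The smallest adjusted p was 0.0529, for Atp6v0e with BRDK98, at 328 and 301 TPM, against 255 and 247 TPM in WT cells. Without either BRM014 60 min library 2 members were called with BRM014 and 3 with BRDK98 at 20 min. A p that misses the threshold does not show that the cells were alike.

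By 60 min the compounds had parted at Ctsc. BRM014 cells had 47.4 and 62.7 TPM and BRDK98 cells 266 and 262 TPM, while ACBI1 cells had 535 and 497 TPM, against 388 and 362 TPM in WT cells. The BRM014 libraries lay below the resting WT libraries, at 93.6 and 78.6 TPM, and the ACBI1 libraries above all others of the experiment. Ctsc fell by 2.76 with BRM014 (SE 0.11, adjusted p = 4.76e-10). The change of -0.50 with BRDK98 and that of 0.46 with ACBI1 (SE 0.11 each, adjusted p = 0.00629 and 0.00491) were lost without WT 60 min replicate 1 and without WT 60 min replicate 2. Compared with each other, the log2 difference was -3.22 for BRM014 against ACBI1 cells, -0.96 for BRDK98 against ACBI1 cells and 2.255 for BRDK98 against BRM014 cells (SE 0.11 each, adjusted p = 8.44e-11, 8.07e-06 and 3.89e-09). The 8 granulocyte markers summed to 272 and 288 TPM in ACBI1 cells, 510 and 444 TPM in BRM014 cells and 413 and 488 TPM in BRDK98 cells, against 425 and 444 TPM in WT cells at 60 min, and 3 of the 7 tested, S100a8, S100a9 and Ngp, were called lower with ACBI1 (-0.65, -0.69 and -0.53) and 0 with the others. Their part in the Ctsc values was not tested. The 3 comparisons between compounds at 60 min were added after the data had been seen.

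In ACBI1 cells at 60 min 5 members rose (11.6% of all genes) and 3 fell (13.4%). Atp6v0a2 rose by 0.94 (SE 0.12, adjusted p = 5.58e-05), with 19.9 and 20.1 TPM, against 10.3 and 9.65 TPM in WT cells. The aminopeptidase gene Ctsh rose by 0.63 (SE 0.07, adjusted p = 1.02e-05), with 442 and 460 TPM, against 290 and 293 TPM, and Lamp2 by 0.52 (SE 0.11, adjusted p = 0.00271), with 697 and 721 TPM, against 516 and 473 TPM. Atp6ap2 fell by 0.68 (SE 0.06, adjusted p = 4.84e-06), with 93.6 and 90.7 TPM, against 146 and 151 TPM. Ctse, at 0.650 and 0.617 TPM against 1.64 and 2.12 TPM, fell by 0.81. The -0.48 of Atp6v1a ended without WT 60 min replicate 2 or ACBI1 60 min replicate 2, and the 0.25 of Atp6v1d without either ACBI1 library at 20 or at 60 min or WT 60 min replicate 2. Without WT 60 min replicate 2 the count was 5, and without either BRM014 60 min replicate it was 13.

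In BRM014 cells at 60 min 1 member rose (16.4%) and 4 fell (13.4%). The riser was Ctsl, an endoprotease of broad use in lysosomes, with 552 and 605 TPM, against 308 and 343 TPM in WT cells, a change of 0.83 (SE 0.07, adjusted p = 1.33e-06). Atp6v1a fell by 0.54 (SE 0.11, adjusted p = 0.00223) and Atp6ap2 by 0.33 (SE 0.06, adjusted p = 0.00165). The -0.34 of Lamp2 ended without BRM014 replicate 1 or either WT 60 min replicate. These BRM014 replicates differed from each other: Lamp2 had 335 and 454 TPM, Atp6v1a 109 and 147 TPM. Without BRM014 replicate 1, Ctsl was at 0.90, Atp6v1a at -0.32 and Ctsc at -2.56, all called. Without replicate 2 they were at 0.76, -0.75 and -2.96, and the count rose to 13. In BRDK98 cells 2 members rose (6.04%) and 1 fell (5.52%): Atp6v0c, with 201 and 165 TPM against 117 and 123 TPM, its overlapping pseudogene and Ctsc. The Atp6v0c change of 0.60 ended without BRDK98 60 min replicate 1. Without either BRM014 60 min replicate the BRDK98 count was 5.

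Compound against compound at 60 min, BRM014 cells had 6 members higher (27.1%) and 7 lower (19.6%) than ACBI1 cells, BRDK98 cells 7 higher (20.1%) and 6 lower (14.3%) than ACBI1 cells, and 7 higher (14.5%) and 2 lower (12.1%) than BRM014 cells. Ctsl was higher in BRM014 than in ACBI1 cells, at 268 and 245 TPM, by 1.17, and lower in BRDK98 than in BRM014 cells by 0.77 (SE 0.07 each, adjusted p = 2.7e-08 and 3.41e-06). Ctsh was lower than in ACBI1 cells by 0.64 in BRM014 and by 0.63 in BRDK98 cells, and Lamp2 by 0.86 and 0.59. Ctss was lower by 0.32 and 0.33 and Ctsz by 0.33 and 0.42 in the same order. Among the pump genes, Atp6v0a2 was lower than in ACBI1 cells by 0.765 in BRM014 and by 0.855 in BRDK98 cells (adjusted p = 0.000117 and 5.99e-05). Atp6v0c was higher in BRDK98 than in ACBI1 cells by 0.78 and Atp6v1a higher in BRDK98 than in BRM014 cells by 0.65 (adjusted p = 1.38e-05 and 0.00063). The smaller differences ended more easily. Between BRM014 and ACBI1 cells, those of Atp6v0b and Ctsf ended without ACBI1 60 min replicate 1 or BRM014 60 min replicate 1, that of Ctsk without ACBI1 60 min replicate 1 and that of Atp6v1e1 without ACBI1 60 min replicate 2 or BRM014 60 min replicate 1. Between BRDK98 and ACBI1 cells, that of Atp6v1a ended without ACBI1 60 min replicate 2, that of Atp6v0d2 without ACBI1 or BRDK98 60 min replicate 2, and that of Ctsb without any of 14 libraries, all those at 20 min and the WT, ACBI1 and BRDK98 libraries at 60 min. Between BRDK98 and BRM014 cells, that of Atp6v0a1 ended without replicate 1 of either compound at 60 min, that of Atp6v0d2 without any of the 4 libraries and that of Atp6v0c without BRDK98 60 min replicate 1. Without BRM014 60 min replicate 2 the count was 21 for BRM014 against ACBI1 and 14 for BRDK98 against BRM014 cells, and the last was 4 without BRDK98 60 min replicate 1.

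Deletion of Arid1a, which encodes a DNA-binding subunit of the BAF form of SWI/SNF, changed cathepsins in both directions. At 1 hr of LPS 4 members rose (18.8% of all genes) and 9 fell (16.8%; 35.6% either way) in Arid1a-/- cells, the 9 being 5 cathepsins, both LAMPs and 2 V-ATPase genes. At 4 hr 5 rose (14.0%) and 5 fell (10.8%; 24.9% either way). The members' median change was -0.05 and 0.02, and the all-gene median 0.03 and 0.05. The summed cathepsin share was 3.65% and 3.51% in Arid1a-/- cells, against 3.36% and 3.305% in Arid1a f/f cells, at 1 hr, and 2.77% and 2.715%, against 2.33% and 2.37%, at 4 hr.

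Ctsl was higher in Arid1a-/- cells at both times. It had 667 and 614 TPM in Arid1a-/- cells, against 458 and 424 TPM in Arid1a f/f cells, at 1 hr, and 728 and 711 TPM, against 330 and 303 TPM, at 4 hr. The groups did not overlap at either time. The change was 1.185 at 4 hr (SE 0.10, adjusted p = 3.35e-05) and 0.54 at 1 hr (SE 0.10, adjusted p = 0.00241), where the call ended without Arid1a f/f 1 hr replicate 2. Ctsf fell by 1.15 and 1.12 (SE 0.12 each, adjusted p = 4.89e-05 and 9.2e-05), with 7.01 and 7.49 TPM, against 16.5 and 18.2 TPM, at 1 hr and 4.88 and 4.38 TPM, against 12.3 and 10.2 TPM, at 4 hr. Ctse fell by 0.96 and 0.87 (SE 0.13 each, adjusted p = 0.000253 and 0.000694). Both had fallen with LPS in the Arid1a f/f cells as well.

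Ctsh and Ctso were called lower at 1 hr and not at 4 hr. Ctsh had 29.2 and 22.4 TPM in Arid1a-/- cells, against 54.5 and 49.9 TPM in Arid1a f/f cells, at 1 hr, and 60.1 and 56.3 TPM, against 64.8 and 60.4 TPM, at 4 hr. The change at 1 hr was -0.997 (SE 0.12, adjusted p = 0.000119), and that of Ctso -0.43 (SE 0.09, adjusted p = 0.00322). The test of the difference between times, the Arid1a-/- effect at 4 hr minus that at 1 hr, called 4 members higher (7.79% of all genes) and 1 lower (8.1%): Ctsh by 0.89 (SE 0.17, adjusted p = 0.00561), Ctsl by 0.65, Ctso by 0.63 and Atp6v1a by 0.56, and Atp6v0a2 by -0.47. All 5 ended without Arid1a f/f 1 hr replicate 1, which left 0 calls. The counts were 2 without Arid1a f/f 1 hr replicate 2, Arid1a f/f 4 hr replicate 2 or Arid1a-/- 4 hr replicate 1, and 3 without Arid1a-/- 4 hr replicate 2. Ctss had -0.28 at 1 hr, lost without either Arid1a f/f 1 hr replicate, and Ctsd 0.41 at 4 hr, lost without Arid1a f/f 4 hr replicate 1 or Arid1a-/- 4 hr replicate 1.

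Both tested LAMPs fell at 1 hr. Lamp2 had 334 and 409 TPM in Arid1a-/- cells, against 535 and 550 TPM in Arid1a f/f cells, at 1 hr, a fall of 0.55 (SE 0.09, adjusted p = 0.00107). At 4 hr it had 494 and 474 TPM, against 602 and 601 TPM, and its call of -0.31 ended without any single 1 hr or 4 hr Arid1a f/f library or 4 hr Arid1a-/- library. Lamp1 fell by 0.35 at 1 hr (SE 0.06, adjusted p = 0.00173), with 1434 and 1496 TPM, against 1851 and 1884 TPM. At 4 hr Lamp1 had 1333 and 1329 TPM, against 1445 and 1509 TPM, a change of -0.15 that was not called.

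Of the pump genes, Atp6v0d2 and Atp6v1c1 moved at both times and kept their calls. Atp6v0d2 had 17.4 and 17.1 TPM in Arid1a-/- cells, against 35.5 and 35.7 TPM in Arid1a f/f cells, at 1 hr, and 5.48 and 5.62 TPM, against 14.1 and 10.9 TPM, at 4 hr. These are falls of 1.01 and 1.03 (SE 0.13 each, adjusted p = 0.000235 and 0.000331). Atp6v1c1 had 193 and 191 TPM, against 140 and 134 TPM, at 1 hr, and 100 and 100 TPM, against 65.8 and 65.1 TPM, at 4 hr, rises of 0.48 and 0.61 (SE 0.07 each, adjusted p = 0.000375 and 0.000158). Smaller calls were lost with single libraries. These were Atp6v0b at -0.25 and -0.295, Atp6v0a2 at 0.37 and Atp6v1h at 0.31 at 1 hr, and Atp6v0a1 at 0.40 and Atp6ap2 at 0.41 at 4 hr. For Atp6v0a2 these were either Arid1a f/f 1 hr replicate, for Atp6v0a1 any of the 4 hr libraries, and for Atp6ap2 Arid1a f/f 4 hr replicate 2 or Arid1a-/- 4 hr replicate 1. For Atp6v1h they were any Arid1a f/f 0 hr or 1 hr library, Arid1a-/- 1 hr replicate 1 or either Arid1a-/- 4 hr library. For Atp6v0b at 1 hr they were the same but for Arid1a-/- 1 hr replicate 2 in place of 1, and at 4 hr either Arid1a f/f 1 hr library, Arid1a f/f 4 hr replicate 2 or either Arid1a-/- 4 hr library. Over all members the count at 1 hr was 8 without Arid1a f/f 1 hr replicate 2, and at 4 hr 6 without Arid1a f/f 4 hr replicate 2 and 5 without Arid1a-/- 4 hr replicate 1. For the LPS response of the Arid1a f/f cells it was 6 without 0 hr replicate 1 and 5 without 1 hr replicate 1.

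**Figure D5:**
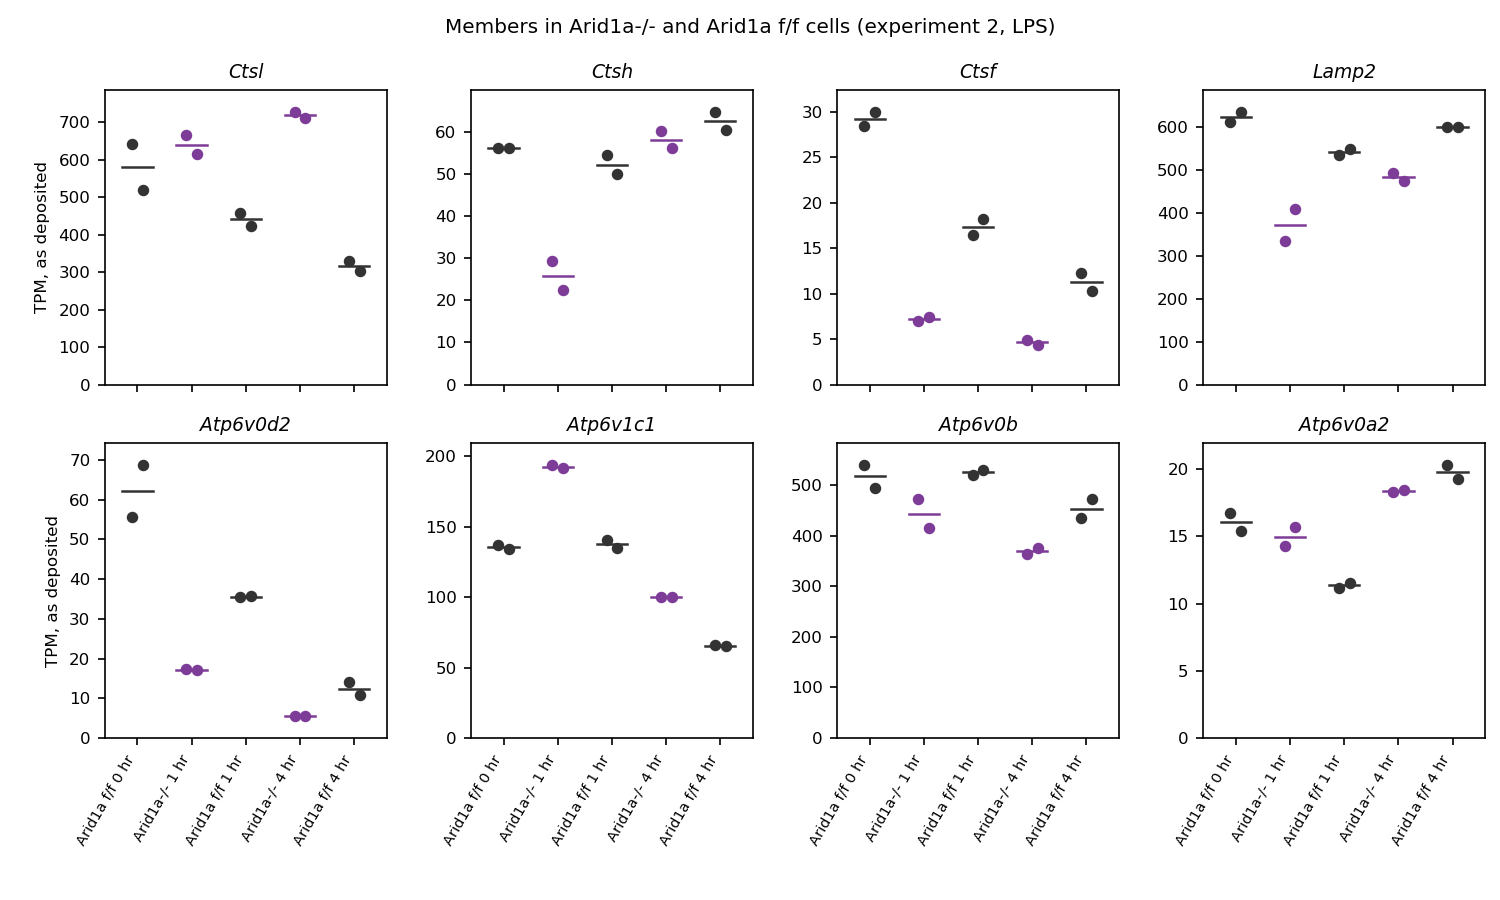
Levels (TPM as deposited) of 4 cathepsin and LAMP genes (upper row) and 4 V-ATPase genes (lower row) in every library of experiment 2 (points) with group means (lines), each panel with its own axis from 0. Ctsl stands at 711 and 728 TPM in Arid1a-/- cells at 4 hr and at 303 and 330 TPM in Arid1a f/f cells, and Atp6v0d2 at 5.48 and 5.62 TPM and at 10.9 and 14.1 TPM.

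In Pbrm1-/- cells, which lack a subunit of the PBAF form of SWI/SNF, 0 of 34 members were called at 4 hr of lipid A, where 0.0% of all genes were called higher and 0.00905% lower. By limma 5 of the 34 members had an unadjusted p under 0.05, where 10.4% of all genes did, and the smallest adjusted p of a member was 0.468. The authors' deposited table had 0 members past its threshold. Pbrm1 itself, with a change of -1.48, was not called by the same rule (adjusted p = 0.0265 as deposited and 0.113 median-scaled). Ctsc had 726 and 664 TPM in Pbrm1-/- cells, against 554 and 502 TPM in Pbrm1 f/f cells, a change of 0.40. Ctse, Atp6v0d1, Ctsz and Ctsb had -0.70, -0.58, -0.37 and -0.34. Atp6v0d1 had 45.4 and 45.2 TPM, against 55.8 and 83.6 TPM, and Ctsb 3694 and 3924 TPM, against 4430 and 5257 TPM. In the levels shown the groups did not overlap, but these genes were picked by their unadjusted p. The share of all genes without overlap was not counted. For Atp6v0d1 and Ctsb the Pbrm1 f/f libraries lay farther apart than the Pbrm1-/- ones. The changes are on TPM as deposited, where the median gene changed by -0.12. Without Pbrm1 f/f 4 hr replicate 1, 2 members were called. For the stimulus comparison of this experiment the count was 3 without 0 hr replicate 2 and 10 without 4 hr replicate 2.

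Beside the members, 43 other lysosomal genes (hydrolases, transporters and membrane proteins) were all tested. At 4 hr of stimulation 2 rose and 22 fell in experiment 1 (20.1% and 37.2% of all genes), 4 and 19 in experiment 2 (17.9% and 35.3%), and 2 and 14 in experiment 3 (16.0% and 30.3%), with medians of -1.38, -0.88 and -0.95, and -0.39, -0.17 and -0.10 median-scaled. At 4 hr 10 rose and 4 fell with ACBI1 (20.0% and 13.5% of all genes), 10 and 3 with BRM014 (26.4% and 16.4%) and 13 and 3 with BRDK98 (22.0% and 12.4%). With ACBI1 and BRM014 the shares called higher lay near those of all genes. The shares called lower lay below those of all genes with each compound, a difference that was not tested. In Arid1a-/- cells 6 rose and 11 fell at 1 hr (18.8% and 16.8% of all genes) and 10 and 9 at 4 hr (14.0% and 10.8%). The genes of the MiT/TFE factors moved in opposite directions with stimulation. Tfeb had 25.7 and 32.2 TPM at 0 hr, 11.7 and 14.6 TPM at 1 hr and 0.476 TPM at 4 hr of experiment 1, and Tfec 53.1 and 45.8 TPM, 276 and 243 TPM and 192 TPM. At 4 hr Tfeb fell, with changes of -4.33, -2.77 and -3.81 in experiments 1 to 3, while Tfec rose by 1.94, 1.05 and 1.92 and Mitf by 1.35, 0.96 and 1.00. Tfe3 had -1.32, -0.98 and -0.83 in the same order, the last not called. In Arid1a-/- cells Tfec fell by 1.62 at 1 hr, with 75.3 and 64.9 TPM, against 215 and 218 TPM in Arid1a f/f cells. At 4 hr it had 97.0 and 101 TPM, against 144 and 131 TPM, a fall of 0.46, and the effect at 4 hr exceeded that at 1 hr by 1.16 (adjusted p = 0.000405). Tfeb fell by 1.06 at 4 hr in Arid1a-/- cells and had -0.21 at 1 hr, not called, while Tfe3 fell by 0.48 at 1 hr and 0.53 at 4 hr. Mitf had -0.04 and -0.10, not called. Of the cathepsin inhibitors, Cst7 (cystatin F, an inhibitor of cathepsin C among others) had 3.45 and 2.79 TPM at 0 hr, 7.16 and 7.72 TPM at 1 hr and 87.5 TPM at 4 hr of experiment 1, a rise of 4.43. It had 61.0 and 61.9 TPM with ACBI1, 5.17 and 4.11 TPM with BRM014 and 21.8 and 24.8 TPM with BRDK98 at 4 hr, changes of -0.50, -3.98 and -1.87.

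The authors' deposited table gave its own fold changes for 19 of these comparisons. Of the 135 calls made here in them, 115 passed the threshold there in the same direction and 0 had the opposite sign.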

How the data were processed

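RNA was measured by single-end mRNA-seq in 45 libraries of 4 experiments. Per the file headers, the authors counted reads over exons with HOMER analyzeRepeats.pl on mm10, on both strands and with transcripts condensed to genes, and deposited the values as TPM, a unit scaled to transcript length and library depth. The submitters' processing notes name STAR 2.5.3a, HOMER and DESeq2. The authors' deposited tables of comparisons give a log2 fold change and an adjusted p-value, used here for a side-by-side count alone. Of the TPM columns, 1 matched no sample and repeated another at 24537 of 24537 genes; it was counted once.

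The members and gene lists were chosen with earlier results of these data known, and the comparisons between compounds at 60 min were added after the data had been seen. Because the unit is TPM, changes were tested with limma 3.58.1 in R 4.3.3 (trend and robust moderation) on log2(TPM + 1), a scale that understates the change of low genes, within each experiment over its groups, for genes of at least 1 TPM in at least 2 libraries. P-values were adjusted by Benjamini-Hochberg over all genes tested. A gene was called where TPM as deposited and TPM divided by a median-ratio factor both passed 0.05 in the same direction. Named members were a fixed set of main subunits and proteases plus, per direction and comparison, up to 4 V-ATPase and 4 cathepsin or LAMP genes of largest change with at least 5 TPM in the higher group. Alternatives were each scaling alone, a pseudocount of 0.1, no filter, plain limma, voom on whole reads recovered from the TPM steps within a tolerance of 0.1, a replicate block, and leaving out each library. The fit was tested on simulated data. Precision follows from depth (counting error only) and from 2 libraries a group, with 1 in the WT 4 hr group of experiment 1, whose comparisons take their spread from the other groups. Samples were not treated as paired in the main fit. Differences between replicates 1 and 2 correlated between groups at 0.24 or less, which does not exclude a pairing.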

Additional observations from a re-analysis of the deposited data

Results flagged for a closer look

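In Arid1a-/- cells 5 members had an effect at 4 hr that differed from the effect at 1 hr by the test of that difference. Ctsh had 0.894, Ctsl 0.648, Ctso 0.632 and Atp6v1a 0.556, and Atp6v0a2 had -0.471, as log2 changes at 4 hr minus 1 hr. All 5 calls ended without Arid1a f/f 1 hr replicate 1.

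With ACBI1, 3 members were called in opposite directions at 60 min and at 4 hr of lipid A. Lamp2 had 0.519 at 60 min and -0.390 at 4 hr, Ctsc 0.460 and -1.702, and Atp6v1d 0.252 and -0.961. The times come from separate experiments, so the difference between them was not tested. The 60 min call of Ctsc ended without WT 60 min replicate 2, and that of Atp6v1d without any of 5 libraries.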

How the results depend on the processing

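No named member called here changed sign under any alternative run, and the signs of the other called members were not checked. On TPM as deposited alone the number of members called was 17 at 1 hr and 30 at 4 hr of lipid A in experiment 1, 17 and 28 at 1 and 4 hr of LPS, 27 at 4 hr in experiment 3 and 16 at 60 min. The number of members was 21 for BRM014 and 23 for BRDK98 against WT at 4 hr, 15 for BRM014 and 18 for BRDK98 against ACBI1 at 4 hr, 20 for ACBI1 and 8 for BRM014 against WT at 60 min, and 26 for BRM014 and 26 for BRDK98 against ACBI1 at 60 min. In the same order, all genes higher and lower at 4 hr were 5570 and 1889, 5717 and 1435, 3528 and 1627, and 4296 and 1771. At 60 min they were 1336 and 3203, 2390 and 1568, 4982 and 2264, and 4972 and 1646. On the median-ratio scale alone the number of members was 14 at 1 hr in experiment 1, 19 at 4 hr of LPS, 12 at 4 hr in experiment 3, 20 at 60 min, 22 for BRM014 and 23 for BRDK98 against WT and 17 for BRDK98 against ACBI1 at 4 hr. In the same order, all genes higher and lower were 2496 and 2227, 4010 and 4167, 3505 and 3343, 2246 and 2060, 3040 and 3492, 2541 and 3435, and 2440 and 2791. The counts on each scale alone differ because each drops a condition of the joint rule. With voom on recovered reads the number of members was 15 at 1 hr in experiment 1, 20 at 4 hr of LPS, 15 at 4 hr in experiment 3, 18 at 60 min, and 13 for BRM014 and 17 for BRDK98 against ACBI1 at 4 hr. With plain limma it was 5 for BRM014 against ACBI1 at 4 hr and 3 for the Arid1a-/- difference between times. Counts over all genes were not made for voom or plain limma. The cause of these shifts was not tested.

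Leaving out 1 library at a time gave 2 to 5 calls at 1 hr and 14 to 16 at 4 hr in experiment 1, 5 to 14 and 9 to 13 at 1 and 4 hr of LPS, 3 to 10 in experiment 3, 0 to 1 at 20 min and 3 to 9 at 60 min. Against WT it gave 8 to 14 for ACBI1, 8 to 14 for BRM014 and 8 to 16 for BRDK98 at 4 hr, 0 to 0, 0 to 2 and 0 to 3 at 20 min, and 5 to 13, 4 to 13 and 2 to 5 at 60 min. Between compounds it gave 4 to 10 for BRM014 and 5 to 10 for BRDK98 against ACBI1 and 11 to 21 for BRDK98 against BRM014 at 4 hr, and 10 to 21, 11 to 15 and 4 to 14 at 60 min. It gave 8 to 15 for Arid1a-/- at 1 hr, 5 to 13 at 4 hr, 0 to 7 for their difference and 0 to 2 for Pbrm1-/-. The WT 4 hr group of experiment 1, a single library, could not be left out.

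The replicate block kept 458 named values on their side of the threshold, made 4 stronger and ended 4 calls: Atp6v1b2 with ACBI1 at 4 hr (0.66), Atp6v0b at 1 hr (-0.25) and Atp6v0a2 between times (-0.47) in Arid1a-/- cells, and Ctsb for BRDK98 against ACBI1 at 60 min (0.515). The difference of replicate 1 from replicate 2 over all tested genes was correlated between groups of an experiment, at -0.24 to 0.24. In experiment 4, 11 of 36 pairs of groups exceeded 0.1, so this check cannot exclude that same-numbered libraries were prepared together. With 2 libraries a group, small changes could be missed.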
